A study of Mus musculus with 8 samples.

Results

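The genes followed here mark the surface and the matrix of mesothelium, and were measured in a mouse epicardial cell line. They are Msln, Upk1b, Upk3b, Lrrn4, Gpm6a, Pdpn and Muc16 at the cell surface, and Efemp1, Sulf1 and Dcn in the matrix, 10 in all. They were taken by symbol, with keratins and transcription factors left out, and all 10 were found once each among the 35275 genes of the deposited tables. Messenger RNA was sequenced in 8 libraries of 1 cell line. In 4 of them (EV) the cells had been transduced with an empty lentiviral vector, and in the other 4 (KO) a guide for CRISPR/Cas9 against Hdac3 had been delivered. Hdac3 is a histone deacetylase that works in the NCoR and SMRT corepressor complexes. The labels of both groups name a transduction. Whether the KO cells were a single clone or a pool is not stated. The labels do not say whether replicates came from separate cultures, so p-values measure the spread between these libraries only.

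Mesothelium is the thin epithelial sheet that lines the body cavities and covers the organs in them, and the epicardium is the mesothelium of the heart. Its cells carry a coat of glycoproteins and mucins on the free surface, and they can leave the sheet and become fibroblasts and smooth muscle cells, which lay down matrix. The surface markers are used to recognise the cells of the sheet, whereas decorin is made in abundance by fibroblasts too.

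Of the 10 markers, 2 rose and 3 fell in KO. Msln, encoding mesothelin, was 1.36-fold higher, and Dcn, encoding decorin, 1.11-fold higher. Muc16, encoding the large membrane mucin to which mesothelin binds, was 2.26-fold lower, Upk3b, encoding a uroplakin, 1.27-fold lower and Lrrn4, encoding a leucine-rich repeat protein of the membrane, 1.23-fold lower. Upk1b, Gpm6a, Pdpn, Efemp1 and Sulf1 did not pass the test. The test was edgeR's quasi-likelihood F test over all 12801 genes that passed a filter on low counts, and a gene was called at a Benjamini-Hochberg adjusted p below 0.05. All 10 markers passed that filter. Among all genes tested, 26.0% were called, 12.6% higher in KO and 13.4% lower, and the markers in 5 of 10 cases. Abundant genes were called more often. Among the 2243 tested genes with a mean of at least 100 CPM (counts scaled to a common library size), 37.7% were called, and 4 of the 8 markers at that level were. The median log2 fold change of the markers was −0.00077, beside 0.0050 over all genes tested.

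**Figure D1:**
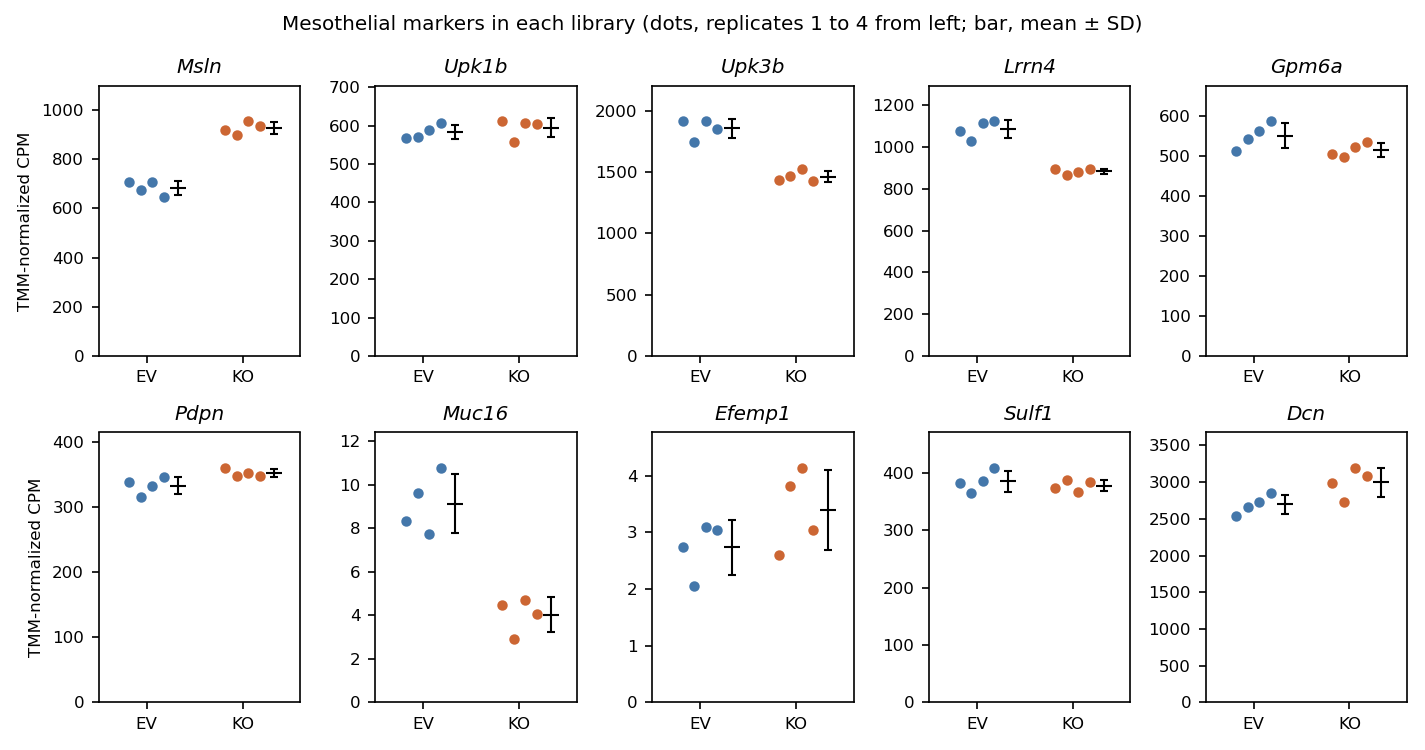
Level of each marker in TMM-normalized CPM (vertical axes, each starting at 0) in the 4 EV libraries (blue) and the 4 KO libraries (orange), with replicates 1 to 4 from left to right and the group mean ± SD as a bar. Msln lies higher and Upk3b, Lrrn4 and Muc16 lie lower in every KO library than in any EV library, while Dcn overlaps through KO replicate 2 at 2731 CPM.

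Library totals ranged from 18063700 to 24564900 counts, and a count of 3 corresponded to 0.122 to 0.166 CPM. Hdac3 itself stood between 60.3 and 64.0 CPM in EV and between 56.9 and 63.9 CPM in KO (edgeR adjusted p = 0.956). An edit by Cas9 can leave the transcript level as it was, so this does not check the labels. KO replicate 1 is titled KO but its transduction label is that of the empty vector. Libraries were grouped by title, and without that library Msln (0.44), Upk3b (−0.33), Lrrn4 (−0.30) and Muc16 (−1.22) were still called, with log2 fold changes as given, while Dcn was not (0.16, edgeR adjusted p = 0.0656). Markers of other cell types were checked as lists, and several of these lists differed between the groups. Among all genes tested, 26.0% were called. The 11 fibroblast genes, Dcn among them and led by Col1a1 and Col1a2, summed to 26295 to 28303 CPM in EV and 34787 to 36242 CPM in KO. Of the 10 fibroblast genes tested, 4 were higher in KO (Col1a1, Col1a2, Col3a1 and Dcn), 4 were lower (Postn, −1.61, Tcf21, −0.74, Pdgfra, −0.38, and Lum) and 2 were not called. The summed level of 8 smooth muscle genes overlapped between the groups (946 to 1156 CPM in EV and 896 to 1090 CPM in KO), with Acta2 the highest and 3 of 5 tested genes lower. That of 12 cardiomyocyte genes was 147 to 162 CPM in EV and 113 to 131 CPM in KO, nearly all of it Tnnt2 (−0.33, lower), with 2 of 5 tested genes lower and Nppa at 0. That of 10 endothelial genes was 41.8 to 45.8 CPM in EV and 31.0 to 37.7 CPM in KO, led by Kdr (−0.58, lower), with 1 of 4 tested genes higher and 2 lower. The lymphatic endothelial list is led by Pdpn itself, and its sum overlapped between the groups (329 to 362 CPM in EV and 351 to 365 CPM in KO). In that list Flt4 went from 14.4 to 2.71 CPM (−2.41, edgeR adjusted p = 1.23e-10), Lyve1 was called higher and Ccl21a was at 0. The 7 haematopoietic genes, led by Cd68 (0.73, higher), summed to 6.52 to 7.78 CPM in EV and 9.93 to 11.3 CPM in KO, and the 12 liver genes, led by Alb (1.80, higher), to 5.03 to 7.51 and 11.1 to 24.6 CPM. Some genes of these lists, named after their values were seen, were near 0. Ptprc of leukocytes had 2 counts over all libraries, Pecam1 of endothelium 17 and Thy1 of many fibroblasts 1. Other genes of the same lists were not, with 1075 counts for Cd68, 3080 for Kdr and 2007460 for Col1a1. The part that the differences in these lists between the groups have in the results on the markers was not tested. Without KO replicates 2 and 3, which held the most liver transcripts, the same number of markers was called, 2 higher and 3 lower. Leaving them out did not remove the difference in liver genes, whose lowest KO sum (11.1 CPM) was above the highest EV sum (7.51 CPM). It is therefore no test of the part of liver transcripts.

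The promoters of the 3 genes that fell are shown because Upk3b, Lrrn4 and Muc16 moved the same way. RefSeq windows (build GRCm38.p6) were matched for 6 of the 10 markers, namely Upk3b, Lrrn4, Muc16, Pdpn, Gpm6a and Efemp1. Each sequence is the 250 bases before the RefSeq start on the strand of the gene, 5′ to 3′, with matches to any of 8 short motifs in capitals. The windows are chr5:136038246-136038495 on the plus strand for Upk3b, and chr2:132880863-132881112 for Lrrn4 and chr9:18674604-18674853 for Muc16, both on the minus strand.
Upk3b: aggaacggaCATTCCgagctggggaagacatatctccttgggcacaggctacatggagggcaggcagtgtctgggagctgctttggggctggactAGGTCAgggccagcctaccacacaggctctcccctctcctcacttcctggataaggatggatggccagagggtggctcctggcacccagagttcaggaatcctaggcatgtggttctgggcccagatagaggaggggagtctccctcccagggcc
Lrrn4: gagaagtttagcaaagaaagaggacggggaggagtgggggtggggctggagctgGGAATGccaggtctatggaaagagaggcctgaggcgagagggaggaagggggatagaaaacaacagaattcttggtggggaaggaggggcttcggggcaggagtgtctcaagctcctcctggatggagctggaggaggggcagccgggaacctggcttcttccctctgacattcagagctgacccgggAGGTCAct
Muc16: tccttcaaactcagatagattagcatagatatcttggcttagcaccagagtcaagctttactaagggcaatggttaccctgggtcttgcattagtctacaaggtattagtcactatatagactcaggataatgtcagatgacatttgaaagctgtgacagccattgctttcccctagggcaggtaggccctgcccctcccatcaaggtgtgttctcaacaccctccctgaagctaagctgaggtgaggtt
The motifs were searched on both strands: the TATA box TATAAA, the CCAAT box, the Sp1 box GGGCGG, the core of TEAD factors CATTCC, the site of AP-1 factors TGANTCA, the site of GATA factors AGATAA, the half-site of nuclear receptors AGGTCA, and the site shared by WT1 and EGR factors GCGNGGGCG. No 2 matches overlapped in these windows. The Upk3b window held CATTCC from 241 to 236 bases before the start and AGGTCA from 155 to 150 bases before it. The Lrrn4 window held CATTCC on the opposite strand, read as GGAATG, from 196 to 191 bases before the start and AGGTCA from 8 to 3 bases before it. On the minus strand the deposited Lrrn4 model begins at 132880891, inside this window, so that AGGTCA lies within the model. The Muc16 window held none of the 8 motifs, as did 21.6% of all 32851 promoter windows in the table. CATTCC was found in 12.6% of those windows, AGGTCA in 14.0% and both in 1.91%. This pair is the one held by the Upk3b and Lrrn4 windows, and no other pair was counted. Its share is therefore no test of how unusual these windows are. Neither CATTCC nor AGGTCA was found only in windows of the genes that fell. Pdpn, which was not called, had AGGTCA from 34 to 29 bases before its start, and 1 of the 2 Gpm6a windows had CATTCC. That Gpm6a window ends at 54779433, far before the deposited model, which starts at 54954728. The Gpm6a window next to the model had neither motif. The shares of the remaining motifs over all windows were 12.4% for the TATA box, 33.8% for the CCAAT box, 32.7% for the Sp1 box, 6.75% for the AP-1 site, 9.99% for the GATA site and 4.70% for the WT1 and EGR site. G and C made up 60.8% of the Upk3b window, 59.2% of the Lrrn4 window and 46.4% of the Muc16 window, beside 53.2% over all windows. A match of this kind is a description of the letters and was not tested for binding.

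Mesothelin is a glycoprotein held on the mesothelial surface by a lipid anchor, and it binds the mucin encoded by Muc16. Msln (ENSMUSG00000063011, mm10 chromosome 17, 25748614 to 25754327, minus strand) had levels of 707, 673, 706 and 646 CPM in the 4 EV libraries, in replicate order, and of 919, 897, 954 and 933 CPM in the 4 KO libraries. All KO libraries were above all EV libraries, and the gap between the groups was wider than the range within either. Group means were 683 ± 29.2 and 926 ± 24.0 CPM (SD over n = 4) and differed by 0.44 on the log2 scale (SE 0.0439), with an edgeR adjusted p = 3.72e-07. This was an increase of 35.6%, with a 95% interval from 27.2 to 44.5%. Of all genes tested, 12.0% had a larger log2 fold change in absolute size.

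Muc16 (ENSMUSG00000032134, chromosome 9, 18495455 to 18512885, minus strand) went the other way. It had levels of 8.33, 9.61, 7.73 and 10.8 CPM in the 4 EV libraries, in replicate order, and of 4.46, 2.89, 4.70 and 4.07 CPM in the 4 KO libraries. The highest KO library was well below the lowest EV library. Group means were 9.11 ± 1.36 and 4.03 ± 0.803 CPM (SD over n = 4) and differed by −1.17 on the log2 scale (SE 0.149), with an edgeR adjusted p = 8.38e-06. KO cells thus held 44.3% of the EV level, and only 1.55% of all genes tested had a larger absolute log2 fold change. It had few counts, with 152 to 227 counts in EV libraries and 59 to 109 in KO libraries. Counting alone gives a coefficient of variation of 7.33% and 11.0% at these depths, beside observed values of 14.9% and 19.9%. The deposited gene model is 1035 bases long and spans 9.73% of the Muc16 gene in GENCODE M21, which runs from 18495455 to 18674530 on the same build and has exons of 26350 bases in all. The counts therefore cover the 3′ end of the locus, the promoter window above lies 161719 bases beyond the deposited model, and the table has no other gene there.

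Uroplakins are membrane proteins first known from the plaques of the bladder lining. Upk3b crosses the membrane once and is among the most widely used markers of mesothelium. Upk3b (ENSMUSG00000042985, chromosome 5, 136038496 to 136045303, plus strand) had levels of 1917, 1746, 1916 and 1853 CPM in the 4 EV libraries, in replicate order, and of 1438, 1469, 1524 and 1429 CPM in the 4 KO libraries. Every KO library was below every EV library. Group means were 1858 ± 80.5 and 1465 ± 42.7 CPM (SD over n = 4) and differed by −0.34 on the log2 scale (SE 0.0432), with an edgeR adjusted p = 7.62e-06. KO cells held 78.9% of the EV level.

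Upk1b, a uroplakin of the tetraspanin family, did not follow Upk3b. Upk1b (ENSMUSG00000049436, chromosome 16, 38773184 to 38800203, minus strand) had levels of 569, 569.5, 589 and 606 CPM in the 4 EV libraries, in replicate order, and of 611, 558, 606 and 603 CPM in the 4 KO libraries. The groups overlapped, with KO replicate 2 the lowest of all 8 libraries. The log2 fold change was 0.03 (SE 0.0445, edgeR adjusted p = 0.689), and the 95% interval of the difference ran from −4.44 to 8.74% of the EV level. That interval does not reach the 21.1% by which Upk3b fell. The Upk3b level was 3.06 to 3.37 times the Upk1b level in EV libraries and 2.35 to 2.63 times in KO libraries, in CPM without regard to length.

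Lrrn4 encodes a membrane protein with leucine-rich repeats that marks mesothelial cells in several organs. Lrrn4 (ENSMUSG00000043110, chromosome 2, 132868305 to 132880891, minus strand) had levels of 1076, 1029, 1114 and 1124 CPM in the 4 EV libraries, in replicate order, and of 893, 865, 878 and 895 CPM in the 4 KO libraries. The KO libraries lay closer together than the EV libraries, and all of them were lower. Group means were 1086 ± 43.0 and 883 ± 14.0 CPM (SD over n = 4) and differed by −0.30 on the log2 scale (SE 0.0422), with an edgeR adjusted p = 2.90e-05. KO cells held 81.3% of the EV level.

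Gpm6a, a membrane glycoprotein of the proteolipid family that is best known from neurons, was not called in the fit over all 8 libraries. Gpm6a (ENSMUSG00000031517, chromosome 8, 54954728 to 55060877, plus strand) had levels of 512, 543.5, 561 and 587 CPM in the 4 EV libraries, in replicate order, and of 506, 497, 522 and 534 CPM in the 4 KO libraries. EV replicate 1 lay among the KO libraries, while the other 3 EV libraries were above them all. The log2 fold change was −0.10 (SE 0.0475, edgeR adjusted p = 0.145), with a 95% interval from −12.8 to 0.142% of the EV level. Without EV replicate 1 it was −0.14 and passed (edgeR adjusted p = 0.0389), and with library totals in place of TMM scaling it was −0.15 and passed (edgeR adjusted p = 0.0251).

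Podoplanin is a mucin-type glycoprotein found on mesothelium, lymphatic endothelium and some fibroblasts, where it links the membrane to the actin skeleton through ezrin and moesin. Pdpn (ENSMUSG00000028583, chromosome 4, 143267431 to 143299564, minus strand) had levels of 339.6, 316, 333 and 347 CPM in the 4 EV libraries, in replicate order, and of 361, 348, 352 and 348 CPM in the 4 KO libraries. The groups did not overlap, but the lowest KO library exceeded the highest EV library by less than 1 CPM. The log2 fold change was 0.08 (SE 0.0428, edgeR adjusted p = 0.194), with a 95% interval from −0.760 to 12.4% of the EV level, and the groups overlapped in the deposited FPKM. Pdpn was 1 of 5 markers whose groups did not overlap in CPM, with Msln, Upk3b, Lrrn4 and Muc16, beside 26.5% of all genes tested. Groups that do not overlap must give the smallest p that a two-sided exact permutation test allows with 4 against 4 libraries (p = 0.0286). For these 5 markers that p therefore adds nothing to the lack of overlap.

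**Figure D2:**
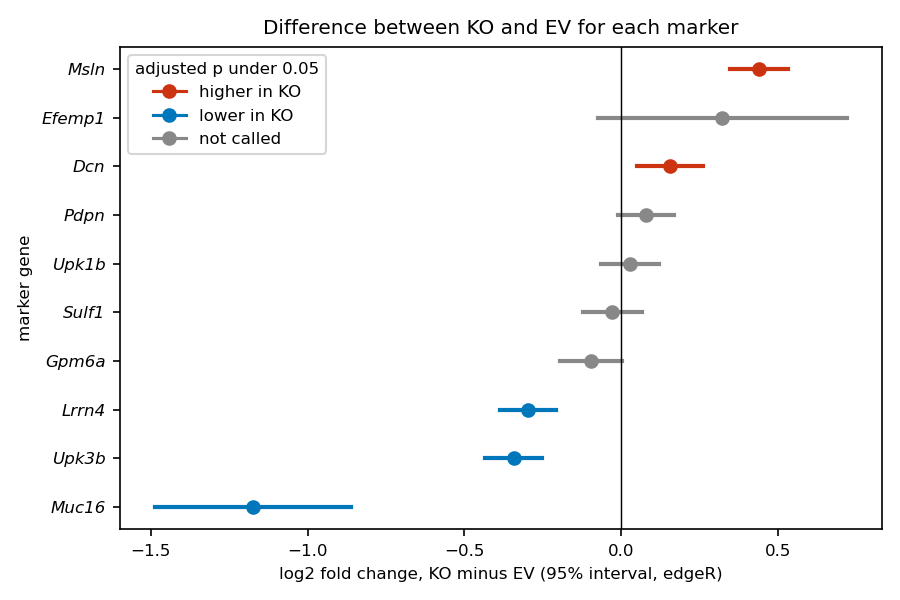
Log2 fold change of each marker, KO minus EV (horizontal axis), with its 95% interval from the edgeR fit, in red where the gene was called higher in KO, in blue where it was called lower and in grey where it was not called. The points run from −1.17 for Muc16 to 0.44 for Msln, and the widest intervals belong to Muc16 and Efemp1, the markers with the fewest counts.

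Decorin is a small leucine-rich proteoglycan that coats collagen fibrils and binds TGF-beta. It had the most counts of the 10 genes. Dcn (ENSMUSG00000019929, chromosome 10, 97479500 to 97518162, plus strand) had levels of 2534, 2657, 2736 and 2856 CPM in the 4 EV libraries, in replicate order, and of 2983, 2731, 3197 and 3084 CPM in the 4 KO libraries. KO replicate 2 lay between EV replicates 2 and 3, and the other KO libraries were above all EV libraries. Group means were 2696 ± 135 and 2999 ± 199 CPM (SD over n = 4) and differed by 0.15 on the log2 scale (SE 0.0500), with an edgeR adjusted p = 0.0295. Leaving out any library but EV replicate 4 or KO replicate 2 ended the call, with edgeR adjusted p values from 0.0541 to 0.110, and with library totals alone (0.10, edgeR adjusted p = 0.129). Counting error was 0.423 and 0.396% in EV and KO, beside observed coefficients of variation of 5.01 and 6.62%.

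Sulf1 is a secreted sulfatase that removes 6-O-sulfate from heparan sulfate and so alters how growth factors such as FGFs and Wnts bind it. Sulf1 (ENSMUSG00000016918, chromosome 1, 12692277 to 12861192, plus strand) had levels of 382, 364, 385 and 409 CPM in the 4 EV libraries, in replicate order, and of 373, 387, 366 and 384 CPM in the 4 KO libraries. The KO libraries lay within the EV range. The log2 fold change was −0.03 (SE 0.0447, edgeR adjusted p = 0.672), and the 95% interval of the difference ran from −8.17 to 4.57% of the EV level.

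Efemp1 encodes fibulin-3, a matrix glycoprotein. Efemp1 (ENSMUSG00000020467, chromosome 11, 28853204 to 28926743, plus strand) had the fewest counts of the 10 genes, with 2.74, 2.05, 3.10 and 3.04 CPM in the 4 EV libraries, in replicate order, and 2.60, 3.82, 4.14 and 3.03 CPM in the 4 KO libraries. KO replicates 2 and 3 were above all EV libraries, and KO replicates 1 and 4 lay within the EV range. The log2 fold change was 0.32 (SE 0.190, edgeR adjusted p = 0.232), and it was 0.05 without KO replicates 2 and 3 (edgeR adjusted p = 0.908). With 47 to 96 counts in a library, the 95% interval ran from −5.13 to 64.7% of the EV level, which includes 0 and also a rise of the size seen for Msln (35.6%).

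Levels can be compared between genes only per length, and for this the deposited FPKM (counts scaled to library total and to the length of the gene model) were used. In EV the order of the mean FPKM levels was Dcn (1454 ± 77.3), Upk3b (805 ± 29.0), Upk1b (335 ± 10.5), Msln (328 ± 12.2), Lrrn4 (297 ± 10.8), Pdpn (187 ± 7.03), Gpm6a (168 ± 10.1), Sulf1 (69.9 ± 3.27), Muc16 (8.96 ± 1.39) and Efemp1 (1.36 ± 0.233), each as mean ± SD over 4 libraries. Neighbours in this order overlapped between libraries in the case of Upk1b and Msln and in that of Pdpn and Gpm6a. In KO no neighbours overlapped, and Msln (430 ± 9.79 FPKM, SD, n = 4) stood above Upk1b (330 ± 12.8) while Lrrn4 stood at 233 ± 3.27 and Upk3b at 613 ± 17.6. Over all 8 libraries 98.9% of the tested genes had a lower mean FPKM than Msln, 99.9% a lower one than Dcn and 99.5% a lower one than Upk3b. Muc16, by contrast, was above 42.7% of the tested genes and Efemp1 above 17.4%. This order rests on the deposited lengths. Those of Msln, Upk1b, Upk3b, Sulf1 and Dcn (2114, 1769, 2346, 5598 and 1886 bases) were shorter than the joined exons in GENCODE M21 (3064, 2089, 3530, 11294 and 5838 bases), as was that of Muc16. Per kb of those joined exons, a scale added after the data were seen, Upk3b (526 CPM per kb) led Dcn (462) in EV and Dcn (514) led Upk3b (415) in KO. On that scale Msln was below Upk1b in EV (223 and 279) and above it in KO (302 and 285), Lrrn4 (292) stood above both in EV, and Muc16 (0.346) stood below Efemp1 (1.34). The counts belong to the deposited models, and whether they cover all of these joined exons is not known. Those of Muc16 cover only part of the locus, as given above, so its place below Efemp1 cannot be read as a level. The order on this added scale is therefore no better founded than that in FPKM. The lengths do not enter the differences between groups.

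**Figure D3:**
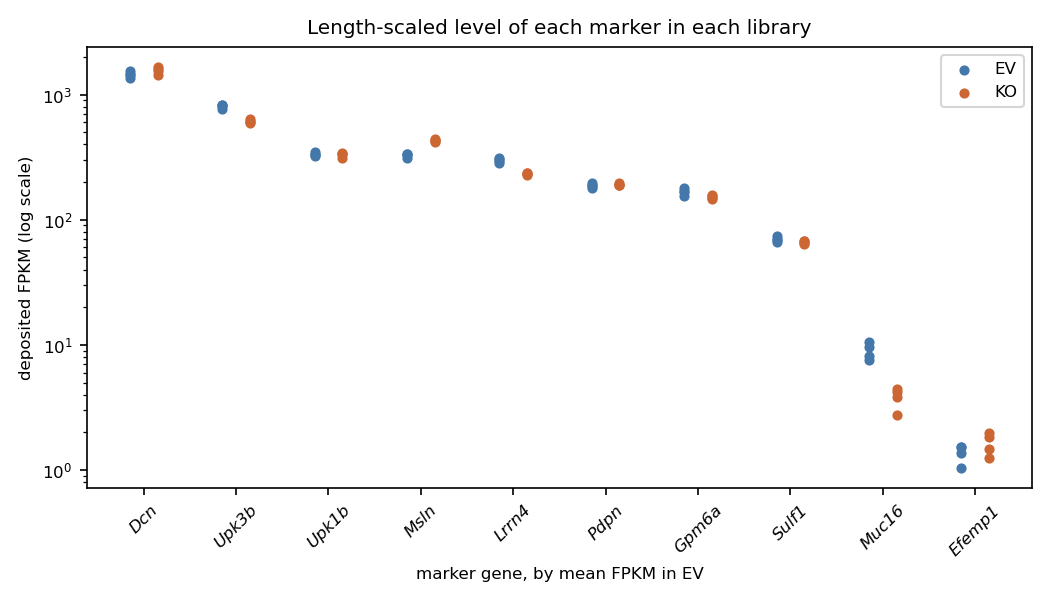
Deposited FPKM of each marker on a log axis, in EV libraries (blue) and KO libraries (orange), with genes ordered by their mean in EV. Levels run from 1454 FPKM for Dcn to 1.36 FPKM for Efemp1 in EV, and the libraries of Msln and Upk1b overlap in EV, while Msln lies above Upk1b in all 4 KO libraries.

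The balance between the surface genes can be read within each library, where scaling between libraries has no part. A ratio shows a shift between genes, not which of them rose or fell. The ratio of Msln to Upk3b in CPM was 0.369, 0.385, 0.368 and 0.349 in the 4 EV libraries, in replicate order, and 0.639, 0.611, 0.626 and 0.653 in the 4 KO libraries. The ratio of Msln to Lrrn4 was 0.575 to 0.657 in EV and 1.03 to 1.09 in KO, so that Msln had fewer counts than Lrrn4 in all EV libraries and more in all KO libraries. These ratios were formed from genes already seen to differ and were given no test. The summed CPM of the 7 surface markers was 4885 to 5225 in EV and 4638 to 4842 in KO, and that of all 10 was 7909 to 8441 and 7760 to 8408. Decorin made up 31.5 to 33.8% of the sum of the 10 in EV and 35.2 to 38.0% in KO.

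**Figure D4:**
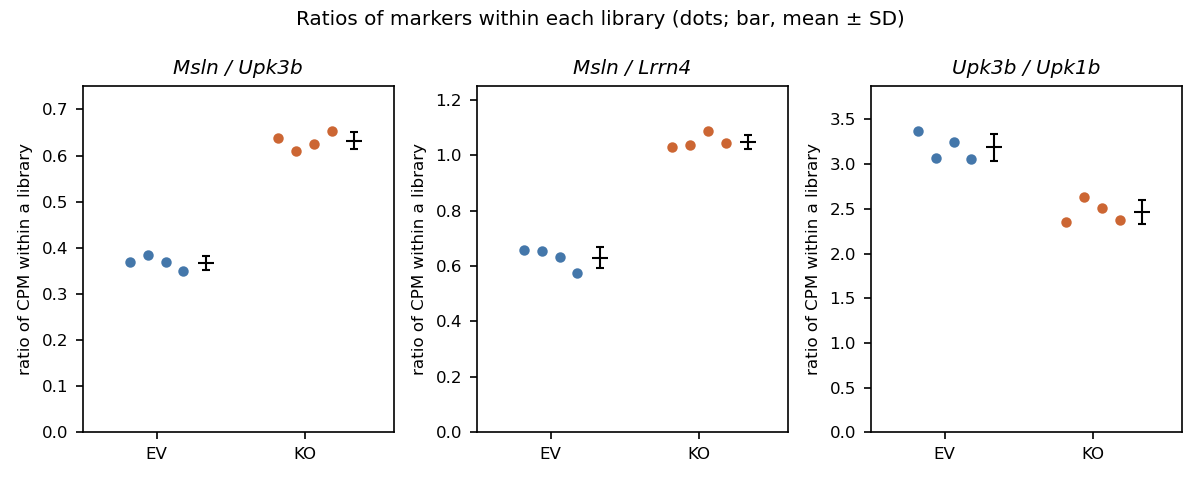
Ratios of CPM between markers within each library (vertical axes starting at 0), for Msln to Upk3b, Msln to Lrrn4 and Upk3b to Upk1b, in EV (blue) and KO (orange), with the group mean ± SD as a bar. The Msln to Upk3b ratio lies between 0.349 and 0.385 in EV and between 0.611 and 0.653 in KO.

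The 10 genes lie on 10 different chromosomes, and none overlaps another gene in the deposited coordinates, so reads of an antisense partner do not enter their counts there. The nearest tested gene on either side was examined for each. Of these 20 neighbours, 2 were higher in KO, 2 were lower and 16 were not called, beside 26.0% called among all genes tested. Lum, encoding the proteoglycan lumican, lies 47339 bases from Dcn and fell (−0.28, edgeR adjusted p = 0.00506), while Dcn was higher. Neither neighbour of Upk3b, Lrrn4 or Muc16 was called.

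Relatives of the surface markers Upk1b, Upk3b, Muc16, Gpm6a and Lrrn4 were mostly scarce in these cells. Of the other uroplakins, Upk3a had no counts, Upk2 and Upk3bl were too low to test, and Upk1a stood at 0.393 and 0.542 CPM in EV and KO (edgeR adjusted p = 0.503). Among the membrane mucins, Muc1 was tested and not called (0.12, edgeR adjusted p = 0.812), and Muc3 and Muc20 had no counts. In the families of Gpm6a and Lrrn4, 3 further genes were tested and none was called, with Lrrn4cl the highest of them (6.14 and 5.51 FPKM in EV and KO). With no filter, 5 were tested and 1 was called lower, both in edgeR and in limma on log2(FPKM + 1). In DESeq2, also with 5 tested, none was called.

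The partners of podoplanin at the membrane were measured too. Of 8 tested, 3 rose, 0 fell and 5 were not called, with a median log2 fold change of 0.12. Over all genes tested, 12.6% were higher in KO and 13.4% lower. Cd44, the hyaluronan receptor, went from 58.2 ± 3.35 to 85.1 ± 8.56 CPM (SD, n = 4 each), Ezr, which ties membrane proteins to actin, rose by 0.14 on the log2 scale (SE 0.0387) and the tetraspanin gene Cd9 by 0.16 (SE 0.0545). The edgeR adjusted p values of these were 3.93e-06, 0.0127 and 0.0334. Of this list only Cd44 was called with library totals alone, in limma on FPKM, without KO replicate 1 and without KO replicates 2 and 3, and 2 were called without EV replicate 1, EV replicate 3 or KO replicate 3.

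Matrix relatives went both ways. The counts below stand beside 12.6% higher in KO and 13.4% lower over all genes tested. Of 6 other fibulins tested, 1 rose and 1 fell: Fbln2 rose by 0.15 on the log2 scale (SE 0.0430), and Fbln1 went from 58.1 ± 2.85 to 31.2 ± 2.11 CPM (SD, n = 4 each). The small leucine-rich proteoglycans other than decorin included no gene that was called higher. Of 9 tested, 4 fell, 0 rose and 5 were not called, with a median of −0.17. Biglycan, Bgn, the closest relative of decorin, went from 2512 ± 113 to 2126 ± 162 CPM (SD, n = 4 each), and Fmod (−0.38, SE 0.0506) and Lum fell as well, with edgeR adjusted p values of 0.00180, 1.48e-05 and 0.00506. Podn was the remaining one that fell, named after its values were seen (−0.77). Without KO replicates 2 and 3, where 10 could be tested, 2 were called lower and 1 higher, and Lum and Podn lost their calls. Without KO replicate 2 alone, 4 were called lower and 1 higher. Of 14 further genes of heparan sulfate synthesis and editing tested, 1 rose and 1 fell, the N-sulfotransferase gene Ndst1 (0.15) and Extl1 (−1.21). Sulf2, the other 6-O-sulfatase, was not called (0.04, edgeR adjusted p = 0.673), like Sulf1. The calls on Fbln2 and Ndst1 were lost with library totals alone and without KO replicates 2 and 3, where Fbln1 and Extl1 kept theirs, and with library totals alone 5 heparan sulfate genes were called lower.

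The keratins and transcription factors left out of the 10 give the setting. Of 19 other mesothelial and epicardial markers tested, 3 rose, 8 fell and 8 were not called, with a median log2 fold change of −0.04. The shares over all genes tested were 12.6% higher in KO and 13.4% lower. The 3 that rose were keratins, Krt8, Krt18 (0.54, SE 0.0438) and Krt19, while Krt7 was among those that fell. The claudin gene Cldn15 (−1.91, SE 0.113) and the zinc finger gene Bnc2 (−0.95, SE 0.0850) had the smallest adjusted p among the falls. Wt1, the epicardial transcription factor, named after its values were seen, went from 341 ± 13.7 to 263 ± 8.43 CPM (SD, n = 4 each, edgeR adjusted p = 3.17e-06). Calb2, encoding calretinin, a marker of human mesothelium, had no counts in any library.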

How the data were processed

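The authors deposited raw counts per gene and FPKM for the same genes and 8 libraries. Build mm10 and DESeq 1.6.3 appear in the submitters' processing notes, and the series design text sets an adjusted p of 0.05. For the aligner, counting tool, annotation and strand, the setting is not given in the sources read. The deposited FPKM equal counts scaled by gene length and column total (100% of nonzero values within 1e-06).

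Counts were tested with edgeR 4.0.16 in R 4.3.3 (TMM, filterByExpr with a minimum count of 10 and total of 15, quasi-likelihood F test, two-sided, Benjamini-Hochberg over 12801 genes, threshold 0.05). The SE is the log2 fold change divided by the square root of F. On simulated counts for 12801 genes, 56, 76, 94 and 100% of genes changed 1.25, 1.5, 2 and 4-fold were recovered, and 12 of 12601 unchanged genes were called. Only 50 genes were changed at each fold, a smaller share than the 26.0% called in the data, so these rates need not hold there. No replicate was a duplicate: pairs within a group gave a chi-square of 4.01 to 13.2 per degree of freedom.

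The markers and lists were chosen with earlier results of these data known, so a list's direction is a description. All 10 markers are named. From each list, up to 3 further called genes with the smallest adjusted p were named, or, where none passed, the tested gene with the highest FPKM. From each cell type list, those at 0 counts and the highest were taken. Other names (such as Flt4, Lyve1, Postn, Tcf21, Pdgfra, Col3a1, Ptprc, Pecam1 and Thy1) were chosen after their values were seen. Adgre1 and Muc3a were not analysed here.

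Alternatives used DESeq2 1.42.0, limma 3.58.1 (voom, and log2(FPKM + 1) or log2(FPKM + 0.1), with at least 0.5 FPKM in 4 libraries or no filter), other scaling and filters, a replicate block and libraries left out.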

Additional observations from a re-analysis of the deposited data

Results flagged for a closer look

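Upk1b in KO replicate 2 stood at 558 CPM, apart from the other 3 KO libraries, of which the nearest was at 603 CPM. The gap made up 0.841 of the range of the group, above Dixon's 95% critical value for 4 values. Of 20 groups examined (10 markers in EV and in KO), this was the 1 that passed, and chance marks about 1 group in 20. Upk1b was not called with or without that library.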

How the results depend on the processing

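Msln, Upk3b, Lrrn4 and Muc16 were called in the same direction under all 19 alternatives, with log2 fold changes from 0.39 to 0.46, −0.39 to −0.33, −0.35 to −0.28 and −1.26 to −1.05. Pdpn and Efemp1 were called under none. Dcn lost its call in 10. The number of markers higher in KO was therefore 1, not 2, with library totals alone and in limma on log2(FPKM + 1), with and without a filter, and on log2(FPKM + 0.1), and ranged from 1 to 2 with a library left out, while the number lower ranged from 3 to 4. TMM factors were 1.01 to 1.03 in EV libraries and 0.980 to 0.987 in KO libraries, and neither library totals alone nor FPKM use them. The cause of these changes in number was not tested. Gpm6a was called lower in 4 alternatives. Upk1b turned to −0.0233 with library totals alone, to −0.0236 in limma on log2(FPKM + 1) with or without a filter and to −0.0236 on log2(FPKM + 0.1). Sulf1 ranged from −0.0552 to 0.000721 with a library left out, and turned without EV replicate 4. Over all genes, 3324 were called, 2621 to 3359 with a library left out and 1974 without KO replicates 2 and 3. With library totals alone 1039 were higher and 2414 lower, beside 1613 and 1711. In limma on FPKM 896 were higher and 2076 lower (pseudocount 1), 897 and 2068 (pseudocount 0.1) or 766 and 1809 (unfiltered). With the replicate number as a block, 3737 genes were called and, of the markers, again 2 higher and 3 lower. Same-numbered libraries correlated in their deviations from the group mean at 0.159, −0.043, 0.0897 and 0.146, and EV replicate 2 correlated better with KO replicate 3, so the numbers were not taken as pairs. For 35 named related genes and cell type markers, run under the same alternatives after the data were seen, no called gene changed direction. Ezr, Cd9, Fbln2, Ndst1 and Krt7 lost their calls in 6, 10, 5, 10 and 3 of 19, and Lum, Podn, Krt19, Col1a2 and Lyve1 in 1 each. Of those not called, Sulf2 and Acta2 turned to −0.00970 and −0.00485 with library totals alone, to −0.00796 and −0.00778 in limma on log2(FPKM + 1) with or without a filter, and to −0.00865 and −0.00781 on log2(FPKM + 0.1). Upk1a turned to −0.583 without KO replicates 2 and 3, and with a library left out Muc1 ranged from −0.0923 to 0.307 and Acta2 from −0.0352 to 0.0956. Muc16 and Efemp1 had the fewest counts, so counting error is highest for them (7.33 to 13.4%).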
